A study of Mus musculus with 20 samples.

Results

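The enzymes that carry squalene through to cholesterol were examined in the cortex of 5xFAD mice. The set was 9 genes, taken as the rows of the count table whose gene symbol was Fdft1, Sqle, Lss, Cyp51, Msmo1, Nsdhl, Hsd17b7, Ebp or Dhcr7. They are 9 of 43346 genes in the table, and all 9 were among the 19623 genes tested. Every library came from mice with the 5xFAD transgenes, an amyloid model that carries human genes with familial Alzheimer's disease mutations, so no group was free of the transgenes. Control mice were 5xFAD+/-; Abca7WT/WT, and knockin (KI) mice carried a substitution in Abca7, a lipid transporter gene. The substitution is written A693S in the protocol of the labels and A696S in the series' design text. The protocol names heterozygous (5xFAD+/-; Abca7WT/KI) and homozygous (5xFAD+/-; Abca7KI/KI) animals, but the libraries are labelled KI alone, with no zygosity. Male littermates were taken at 3 and at 10 months of age. Each genotype and age had 5 libraries, 20 in all.

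Cells make cholesterol from acetyl-CoA through mevalonate and farnesyl diphosphate, and the step to squalene commits the pathway to sterols. Squalene is oxidised and closed into lanosterol, the first sterol, which is then stripped of methyl groups and rearranged to cholesterol. The brain makes nearly all of its own cholesterol, because lipoproteins do not cross the blood-brain barrier, and uses much of it in myelin and in cell membranes. Transcription of these enzymes is driven by SREBP-2, which is released from the endoplasmic reticulum when sterols are low and often acts together with the factors NF-Y and Sp1.

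The fitted differences of all 9 genes lay above 0 in KI against control at both ages, and at 10 against 3 months in both genotypes. Between genotypes 0 of 9 passed the test at 3 months, where 0.0102% of all genes tested were called higher by edgeR at an adjusted p of 0.05. At 10 months 2 of 9 rose in KI, Fdft1 by 0.26 and Nsdhl by 0.32 on the log2 scale, against 0.0357% of all genes. Both calls were lost when any 1 of the 10 libraries of that age was left out, under RLE scaling and in the compared libraries alone. With age, Fdft1, Sqle, Lss and Nsdhl rose in both genotypes and Msmo1 rose in KI, which is 4 of 9 in control against 3.72% of all genes and 5 of 9 in KI against 5.66%. Cyp51, Hsd17b7, Ebp and Dhcr7 were not called by edgeR in any comparison, and Dhcr7 had the smallest genotype difference of the 9 in the average over ages. Summed over the 9 genes, the level was 500.4 to 592 CPM, a library's counts brought to a common total, in control at 3 months and 576 to 640.5 in KI. At 10 months it was 633 to 674 CPM in control and 737 to 825 in KI. The KI libraries at 10 months all lay above every other library by this sum, and without KI replicate 5 they spanned 737 to 758 CPM. These are bulk libraries, in which a change in the number of cells of a type and a change in RNA per cell cannot be told apart.

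Libraries held 42896149 to 57447015 counts. Abca7 itself stood at 18.8 to 31.4 CPM in the 3 month KI libraries, 26.8 to 29.8 CPM in their controls, 19.6 to 29.9 CPM in the 10 month KI libraries and 22.3 to 32.9 CPM in theirs, which does not check the labels because a substitution need not alter the level. Markers of cortical excitatory neurons were present in every library, at a summed 1347 to 2177 CPM. In KI replicate 5 at 10 months Xist, a marker of the second X in females, reached 54206 counts and Ddx3y, on the Y chromosome, 1 count. In no other library did Xist exceed 218 counts or Ddx3y fall below 2382, so 1 of the 20 went against the stated sex. That library was the highest of its group for 6 of the 9 genes. KI replicate 3 at 3 months stood apart from its group across all genes. For some of the genes that these libraries led, values without them are given beside the result.

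The sequences before the transcription start were read to describe what the genes share beyond their place in the pathway. RefSeq promoters of build GRCm38.p6 were matched by symbol for 7 of the 9 genes; Fdft1 and Sqle were not matched. Each sequence is the 250 bases before a start, written 5′ to 3′ along the gene, with the NF-Y box (CCAAT, or ATTGG where it lies on the other strand) in capitals. Those of Nsdhl and Msmo1, which rose with age (Msmo1 in KI), are shown beside those of Ebp and Dhcr7, which edgeR did not call in any comparison. Nsdhl lies on the plus strand (chrX:72918271-72918520), Msmo1 on the minus strand (chr8:64733579-64733828) and Ebp on the minus strand (chrX:8193513-8193762). Dhcr7 lies on the plus strand and is shown for the start nearest to that in the count table (chr7:143822917-143823166) and for a start further downstream (chr7:143829964-143830213).
Nsdhl: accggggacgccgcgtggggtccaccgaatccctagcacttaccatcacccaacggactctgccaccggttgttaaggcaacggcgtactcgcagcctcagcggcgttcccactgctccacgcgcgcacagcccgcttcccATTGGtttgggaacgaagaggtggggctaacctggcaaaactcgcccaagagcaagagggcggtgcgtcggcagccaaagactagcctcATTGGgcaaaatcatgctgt
Msmo1: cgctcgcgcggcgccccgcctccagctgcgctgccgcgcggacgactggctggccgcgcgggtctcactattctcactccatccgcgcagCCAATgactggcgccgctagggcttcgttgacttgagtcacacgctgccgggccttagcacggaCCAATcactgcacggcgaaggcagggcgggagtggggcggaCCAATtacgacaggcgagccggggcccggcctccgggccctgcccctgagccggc
Ebp: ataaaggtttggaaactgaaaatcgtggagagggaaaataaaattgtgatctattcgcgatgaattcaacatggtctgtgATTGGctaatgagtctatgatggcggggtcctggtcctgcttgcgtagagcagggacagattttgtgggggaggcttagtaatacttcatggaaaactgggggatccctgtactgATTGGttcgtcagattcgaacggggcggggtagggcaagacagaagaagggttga
Dhcr7, start nearest the table: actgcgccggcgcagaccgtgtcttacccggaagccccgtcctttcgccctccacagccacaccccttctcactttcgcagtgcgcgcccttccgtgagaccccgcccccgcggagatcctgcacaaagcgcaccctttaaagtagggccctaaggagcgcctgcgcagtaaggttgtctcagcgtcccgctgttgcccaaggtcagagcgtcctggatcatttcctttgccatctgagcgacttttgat
Dhcr7, downstream start: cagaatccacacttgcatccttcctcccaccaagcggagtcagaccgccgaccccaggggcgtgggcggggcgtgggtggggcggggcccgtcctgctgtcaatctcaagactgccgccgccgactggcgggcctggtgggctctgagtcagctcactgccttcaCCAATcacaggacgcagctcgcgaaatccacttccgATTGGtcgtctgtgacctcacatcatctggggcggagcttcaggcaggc

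Nsdhl and Ebp each held 2 NF-Y boxes and Msmo1 held 3. Hsd17b7 held 3, and Lss and Cyp51 held 1 each. Dhcr7 held 0 in the window at the start nearest the table and 2 in the window of the downstream start shown. Another Dhcr7 window, at a start 254 bases from that in the count table, held 0 and is not shown. Taken at the window nearest the table's start, the NF-Y box was thus in 6 of 7 members, against 33.8% of all 32817 RefSeq promoter windows of this length. Those windows include further starts of a gene and were not limited to the genes tested. The shares of members and of windows are therefore not like for like. The Sp1 box GGGCGG was in 7 of 7 on either strand, against 32.7% of all windows. The sterol regulatory element, searched as TCACNCCAC on both strands, was in 0 of 7, against 1.05% of all windows. Other forms of the element were not searched, so the absence of this form does not show that the element is absent. None of the 3 motifs contains another. A match describes letters in the sequence and not a bound site.

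Levels per kilobase of the length in the count table placed Fdft1 first, at 50.4 ± 8.27 CPM per kb (SD over 20 libraries). Msmo1 followed at 18.9 ± 3.43, Cyp51 at 17.8 ± 1.94, Nsdhl at 16.6 ± 3.40 and Sqle at 16.5 ± 2.33 CPM per kb. The ranges of these 4 overlapped, although Msmo1 lay above Sqle in every library. The SDs include the differences between groups. Dhcr7 stood at 11.9 ± 0.978, Ebp at 7.44 ± 0.619, Lss at 6.84 ± 0.927 and Hsd17b7 at 5.46 ± 0.866 CPM per kb. The ranges of Ebp, Lss and Hsd17b7 over the 20 libraries overlapped. The lengths are those of the table and not of the isoform in use. For Sqle, Lss, Msmo1, Nsdhl, Hsd17b7 and Ebp they equal the union of all annotated exons, and for Fdft1 (2860 against 4227 bases), Cyp51 (4286 against 4415) and Dhcr7 (3784 against 5817) they are shorter than it. The order of levels per kb depends on this choice of length.

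Fdft1 encodes squalene synthase, which joins a pair of farnesyl diphosphates into squalene (chromosome 14, 63145153 to 63177793, mm10). At 3 months the control libraries held 106, 118, 119.5, 119.5 and 127 CPM and the KI libraries 129, 130.2, 130.3, 135 and 136 CPM. The lowest KI library lay above the highest control, so the groups did not overlap. At 10 months the control libraries held 142, 147, 149.8, 152 and 152 CPM and the KI libraries 170.3, 173, 178, 181 and 189 CPM. Again every KI library lay above every control, and every 10 month library lay above every 3 month library of either genotype. KI replicate 5 was the highest, and without it the 10 month KI mean was 175.6 ± 4.69 CPM (SD). The difference, KI minus control, was 0.17 ± 0.049 on the log2 scale at 3 months (SE; edgeR adjusted p = 0.874) and 0.26 ± 0.049 at 10 months (adjusted p = 0.0452). Averaged over ages Fdft1 rose by 0.21 ± 0.035 (adjusted p = 0.00851). With age it rose by 0.33 ± 0.049 in control (adjusted p = 0.000111) and by 0.43 ± 0.049 in KI (adjusted p = 2.92e-06). Fdft1 shares 774 exon bases (18.3% of its annotated exons) with Ctsb, a lysosomal protease gene on the opposite strand, and the strand used in counting was not given in the sources used here. That share is of 4227 annotated bases. The length in the count table was 2860 bases, so the share of the counted bases may be larger. Ctsb differed by -0.013 ± 0.05 between genotypes at 3 months and by 0.21 ± 0.05 at 10 months (adjusted p = 0.9998 and 0.261). With age Ctsb rose by 0.36 ± 0.06 in control and by 0.58 ± 0.06 in KI (edgeR adjusted p = 0.000147 and 1.96e-07). Both estimates were larger than those of Fdft1, that in control by less than its SE. Over all libraries Ctsb held 753856 counts and Fdft1 146325. How far Ctsb reads entered the Fdft1 counts was not tested.

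Sqle encodes squalene epoxidase, a rate-limiting oxygen-dependent step (chromosome 15, 59315077 to 59331192). Its libraries at 3 months held 73.2, 73.3, 75.5, 79.4 and 85.3 CPM in control and 83, 86.8, 87.2, 87.6 and 89.5 CPM in KI. Of the KI libraries 4 lay above the highest control. Those at 10 months held 89.2, 90.6, 90.7, 96.6 and 98.3 CPM in control and 104, 104, 106, 107 and 125 CPM in KI, with no overlap. KI replicate 5 was the highest library, and the remaining 4 KI libraries spanned 104 to 107 CPM. The genotype difference of Sqle was 0.17 ± 0.058 at 3 months, 0.23 ± 0.058 at 10 months (edgeR adjusted p = 0.258) and 0.20 ± 0.041 in the average over ages (adjusted p = 0.0794, 95% interval 0.11 to 0.28). Without replicate 5 the 10 month difference of Sqle was 0.18. The averaged difference passed with DESeq2 (adjusted p = 0.00244) and with limma-voom. With age Sqle rose by 0.27 ± 0.058 in control (adjusted p = 0.0067) and by 0.33 ± 0.058 in KI (adjusted p = 0.000623).

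Lss encodes lanosterol synthase, which closes the rings of oxidosqualene (chromosome 10, 76531588 to 76557138). The 3 month libraries held 57.7, 57.9, 63.1, 64.2 and 69.3 CPM in control and 61.7, 67.4, 70.6, 72.8 and 77.5 CPM in KI, and these ranges overlapped. The 10 month libraries held 73.5, 75.2, 76.6, 77.7 and 78.4 CPM in control and 82.3, 83.3, 84, 91.2 and 92.1 CPM in KI, without overlap. KI replicate 5 was in the middle of its group for Lss. The genotype difference was 0.17 ± 0.063 at 3 months, 0.18 ± 0.063 at 10 months and 0.17 ± 0.045 on average (edgeR adjusted p = 0.292), and did not pass. With age Lss rose by 0.29 ± 0.063 in control (adjusted p = 0.00768) and by 0.31 ± 0.063 in KI (adjusted p = 0.0033). An antisense gene, 4930483K19Rik, covers 381 of its exon bases and was nearly silent, with at most 0.0225 CPM in any library.

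Cyp51 encodes the cytochrome P450 that takes the first methyl group off lanosterol (chromosome 5, 4081145 to 4104746). At 3 months it stood at 58.7, 65.7, 69, 69.8 and 77 CPM in control and 73.5, 75.2, 79.6, 84.2 and 92.4 CPM in KI. KI replicate 3, the library that stood apart, was the highest, and 3 of the 5 KI libraries lay above the highest control. At 10 months Cyp51 stood at 66.8, 67, 77.7, 77.9 and 79.5 CPM in control and 78.8, 80.9, 81.7, 84.8 and 87.5 CPM in KI, where the lowest KI library lay just below the highest control. The genotype difference was 0.25 ± 0.076 at 3 months (edgeR adjusted p = 0.874), the largest of the 9 at that age, and 0.17 ± 0.076 at 10 months (adjusted p = 0.619). Without KI replicate 3 the 3 month difference was 0.20. Cyp51 was the member with the smallest difference with age in KI, 0.031 ± 0.076 (95% interval -0.13 to 0.19), and had 0.12 ± 0.076 in control, neither of which passed. Its annotated exons share 166 bases with Akap9 on the opposite strand, and Akap9 differed by 0.011 ± 0.11 at 3 months and -0.13 ± 0.11 at 10 months.

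Msmo1 encodes the sterol methyl oxidase that starts removal of the next methyl groups (chromosome 8, 64718139 to 64733792). Its 3 month levels were 84.3, 92.1, 93.9, 95.9 and 111 CPM in control and 101, 101, 103, 112 and 126 CPM in KI. Only KI replicates 3 and 4 lay above the highest control there. Its 10 month levels were 108, 113, 115, 117 and 126 CPM in control and 131, 136, 138, 146 and 171 CPM in KI, without overlap and with KI replicate 5 at the top. Without KI replicate 3 the 3 month difference was 0.13. Without replicate 5 the 10 month difference from control was 0.24 on the log2 scale and the KI mean was 138 ± 6.02 CPM (SD, n = 4), against 116 ± 6.63 CPM in control (SD, n = 5). The genotype difference of Msmo1 was 0.18 ± 0.082 at 3 months, 0.31 ± 0.082 at 10 months (edgeR adjusted p = 0.261) and 0.25 ± 0.058 on average (adjusted p = 0.171). With age Msmo1 rose in KI by 0.41 ± 0.082 (adjusted p = 0.00233), and in control it had 0.28 ± 0.082 (adjusted p = 0.06). The 2 age differences were not shown to differ, with an interaction of 0.13 ± 0.12 (adjusted p = 0.9995). The control difference passed in DESeq2, in limma-voom and in some other alternatives.

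Nsdhl encodes the X-linked sterol dehydrogenase that acts after Msmo1 (chromosome X, 72918557 to 72958514). At 3 months its levels were 33.3, 35.8, 38.1, 38.7 and 40.2 CPM in control and 39.5, 42, 42.3, 42.4 and 44.8 CPM in KI. The lowest KI library lay below the highest control, and 4 of 5 lay above it. At 10 months its levels were 48.1, 48.1, 49, 49.7 and 50.3 CPM in control and 57.4, 57.8, 59.7, 62.5 and 69.5 CPM in KI. The control libraries lay close together and every KI library lay above them. The genotype difference was 0.18 ± 0.061 at 3 months, and Nsdhl rose by 0.32 ± 0.061 at 10 months (edgeR adjusted p = 0.0497) and by 0.25 ± 0.043 on average (adjusted p = 0.0161). With age it rose the most of the 9, by 0.40 ± 0.061 in control (adjusted p = 0.000183) and by 0.54 ± 0.061 in KI (adjusted p = 2.54e-06). KI replicate 5, the library with Xist, was the highest for this X-linked gene at 69.5 CPM, and the part of X dosage in that value was not tested. The other 4 KI libraries had 59.3 ± 2.33 CPM (SD, n = 4) and did not overlap with control. Without replicate 5 the 10 month difference was 0.27 on the log2 scale.

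Hsd17b7 encodes the ketoreductase of the demethylation steps (chromosome 1, 169949535 to 169969241) and had the largest SE of the 9. It ranged over 22.4 to 28.2 CPM in control and 22.7 to 32.5 CPM in KI at 3 months. At 10 months the ranges were 24 to 32.2 CPM in control and 26.4 to 36.5 CPM in KI. All 4 ranges overlapped. KI replicate 3 was the highest at 3 months and KI replicate 5 at 10 months, and without the latter the KI mean was 31.5 ± 3.99 CPM (SD, n = 4). Its genotype difference of 0.16 ± 0.075 on average (95% interval 0.007 to 0.32, edgeR adjusted p = 0.753) did not pass, nor did its age differences of 0.22 ± 0.11 in control and 0.29 ± 0.11 in KI (adjusted p = 0.383 and 0.103). The age difference in KI passed with limma-voom (adjusted p = 0.0127) and with edgeR without KI replicate 3 at 3 months, where it was 0.38 (adjusted p = 0.0234).

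Ebp encodes the X-linked sterol isomerase that shifts the double bond of the B ring (chromosome X, 8185329 to 8193512), and Dhcr7 encodes a reductase that makes cholesterol from 7-dehydrocholesterol (chromosome 7, 143823145 to 143848410). Ebp ranged over 14.5 to 16.4 CPM in control and 14.6 to 18.1 CPM in KI at 3 months, and over 17.5 to 18 CPM and 17.6 to 19.8 CPM at 10 months. The controls of the 2 ages did not overlap for Ebp, although its age difference of 0.20 ± 0.062 did not pass (edgeR adjusted p = 0.0983). It passed with DESeq2 and with limma-voom (adjusted p = 0.0194). Its genotype difference was 0.10 ± 0.044 on average, with a 95% interval of 0.004 to 0.19, and did not pass (edgeR adjusted p = 0.753). Dhcr7 ranged over 37.3 to 46.9 CPM in control and 37.9 to 47.1 CPM in KI at 3 months. Its 10 month ranges were 40.9 to 51.3 CPM and 43.9 to 48.1 CPM, and the 4 ranges overlapped. The lowest library of KI was replicate 3 at 3 months and replicate 5 at 10 months, and without the latter the mean was 48.0 ± 0.161 CPM (SD, n = 4). Its genotype difference was 0.062 ± 0.054 on average, with an interval of -0.052 to 0.18. Its age difference was 0.070 ± 0.077 in control and 0.080 ± 0.077 in KI. Whether Ebp and Dhcr7 changed less than the earlier enzymes was not tested.

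**Figure D1:**
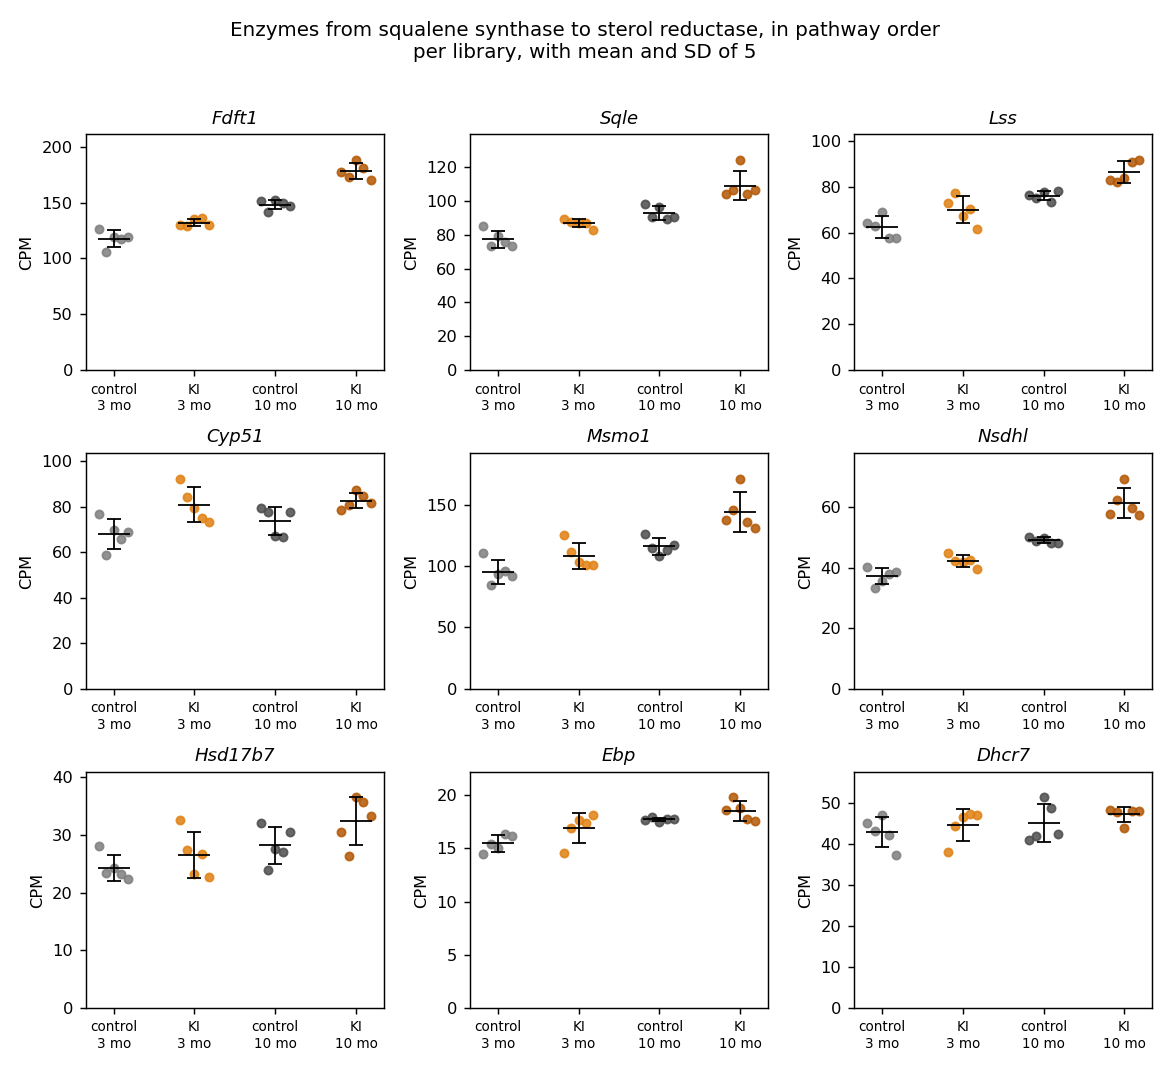
CPM of each of the 9 genes (vertical axis, from 0) in the 4 groups of 5 libraries, in pathway order. Each point is a library, and the bar and whiskers are the mean and SD. For Fdft1, Sqle, Lss, Msmo1 and Nsdhl the 10 month KI libraries all lay above the 10 month controls.

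Counted over the set, 0 of 9 genes were called higher in KI at 3 months, when 0.0102% of all genes tested were. At the unadjusted level 6 of the 9 had a p under 0.05 with edgeR, 7 with DESeq2 and 6 with limma-voom, and 0 were called by any of them. At 10 months 2 of 9, Fdft1 and Nsdhl, were called higher, against 0.0357% of all genes. In the average over ages the same 2 were called, against 0.0459%. All 9 log2 fold changes lay above 0 in each of these comparisons, as did 52.4%, 50.04% and 51.4% of all genes tested. The median of the 9 was 0.17, 0.20 and 0.20, and the median of all genes was 0.005, 0 and 0.003. By ranges, 1 gene (Fdft1) was higher in KI without overlap at 3 months, against 0.306% of all genes, and 5 were at 10 months (Fdft1, Sqle, Lss, Msmo1 and Nsdhl), against 0.907%. These 9 genes are not independent of one another, and the average over ages uses the libraries of both.

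The 10 month calls were at the edge of the threshold. Leaving out any 1 of the 10 libraries of that age ended both, with adjusted p of 0.0775 to 0.307 for Fdft1 and 0.0526 to 0.255 for Nsdhl, while the differences stayed between 0.24 and 0.27 and between 0.27 and 0.35. In the average over ages the call of Fdft1 held without any 1 library (adjusted p at most 0.0422). That of Nsdhl ended without control replicate 7 or KI replicate 5 at 3 months, or control replicates 7, 9 or 10 or KI replicate 4 at 10 months (adjusted p at most 0.0647), which left 1 gene called. Without both libraries that stood apart the 10 month differences were 0.23 for Fdft1 and 0.27 for Nsdhl, with 0 genes called.

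With age, 4 of 9 were called higher in control (Fdft1, Sqle, Lss and Nsdhl), against 3.72% of all genes, and 5 of 9 in KI (the same 4 and Msmo1), against 5.66%. No member fell. The median of the 9 was 0.27 in control and 0.31 in KI, beside -0.003 for all genes in each. Without overlap, 5 genes were higher at 10 months in control (Fdft1, Sqle, Lss, Nsdhl and Ebp), against 4.56% of all genes, and 5 in KI (Fdft1, Sqle, Lss, Msmo1 and Nsdhl), against 5.34%. The age differences in KI and the genotype differences at 10 months share the KI libraries. The interaction of genotype and age was called for 0 of 9 genes, against 0% of all genes called higher. At the unadjusted level 0 of 9 had a p under 0.05 with edgeR, DESeq2 or limma-voom. Over all genes tested 883, 936 and 1849 did, in that order. The interaction ranged from -0.086 ± 0.11 for Cyp51 to 0.14 ± 0.086 for Nsdhl, with a 95% interval of -0.037 to 0.32 for the latter. The genotype difference was therefore not shown to depend on age for any member.

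**Figure D2:**
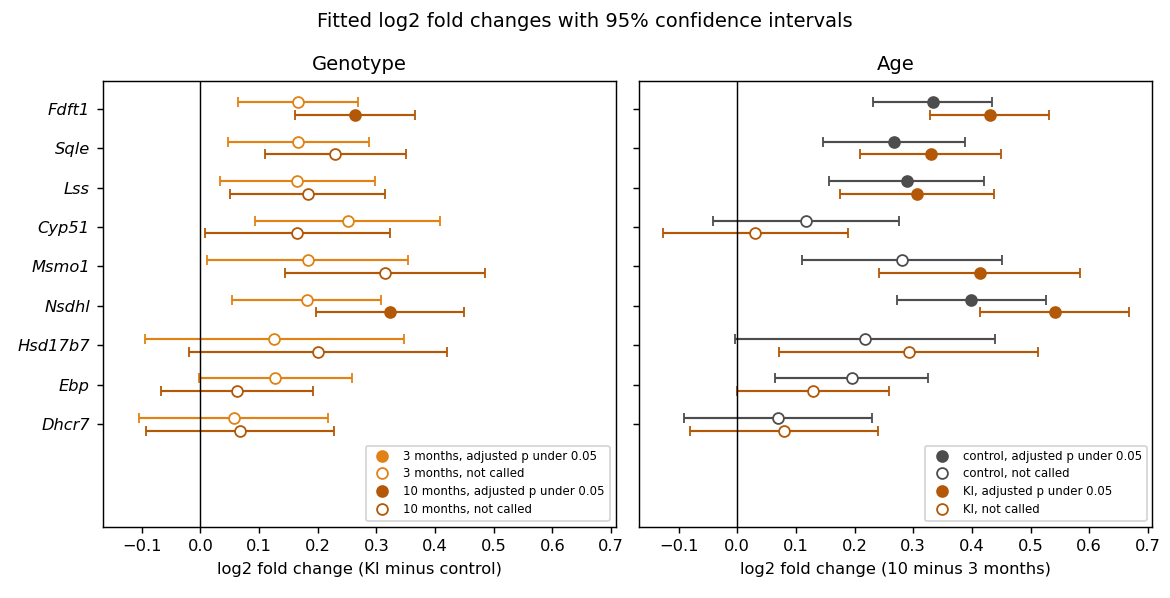
Log2 fold change (horizontal axis) of the 9 genes in pathway order, for genotype at 3 and 10 months on the left and for age in control and KI on the right. Bars are 95% confidence intervals from the edgeR fit, and filled points passed an adjusted p of 0.05. Fdft1 and Nsdhl are filled for genotype at 10 months, and all points lie to the right of 0.

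The other genes of the pathway were taken from lists by role. Of the mevalonate arm, which makes farnesyl diphosphate from acetyl-CoA, 8 of 8 genes lay above 0 in KI averaged over ages (median 0.20), and 1 was called. That was Acat2, a cytosolic acetoacetyl-CoA thiolase gene, which rose by 0.23 ± 0.041 on average (edgeR adjusted p = 0.0323) and by 0.34 ± 0.058 at 10 months (adjusted p = 0.0258). Fdps, the farnesyl diphosphate synthase gene whose product Fdft1 uses, had 0.23 ± 0.053 (adjusted p = 0.15). With age 2 of the 8, Acat2 and Fdps, rose in each genotype.

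The remaining enzymes after squalene had a median of 0.051, with 5 of 5 above 0 and 0 called in any comparison. Among them Erg28 had 0.068 ± 0.039 (adjusted p = 0.831). The branches that lead from farnesyl diphosphate to other products had 6 of 7 genes above 0, a median of 0.051 and 0 calls in any comparison. Fnta, a farnesyltransferase subunit gene, had 0.082 ± 0.043 and Dhdds, a dolichol synthesis gene, had 0.051 ± 0.050 (adjusted p = 0.801 and 0.938).

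Of 10 genes of sterol sensing and uptake, 5 lay above 0 in the average over ages (median 0.003). Insig1, which retains the SREBP complex in the endoplasmic reticulum and is itself an SREBP target, stood at 64.1 to 79.3 CPM in control and 79.2 to 94.4 CPM in KI at 3 months. At 10 months it stood at 76.2 to 97.8 CPM in control and 112 to 121 CPM in KI. It rose by 0.39 ± 0.050 on average (adjusted p = 0.000355) and by 0.49 ± 0.070 at 10 months (adjusted p = 0.00225), a larger estimate than any of the 9 enzymes had. Srebf2, which encodes SREBP-2 itself, had -0.002 ± 0.093 (adjusted p = 0.997). Of 13 genes of sterol export and turnover, 8 lay above 0 (median 0.027) and 0 were called in a genotype comparison. The lysosomal carrier gene Npc2 had 0.17 ± 0.049 and Cyp27a1, a sterol hydroxylase gene, 0.17 ± 0.085 (adjusted p = 0.452 and 0.781).

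**Figure D3:**
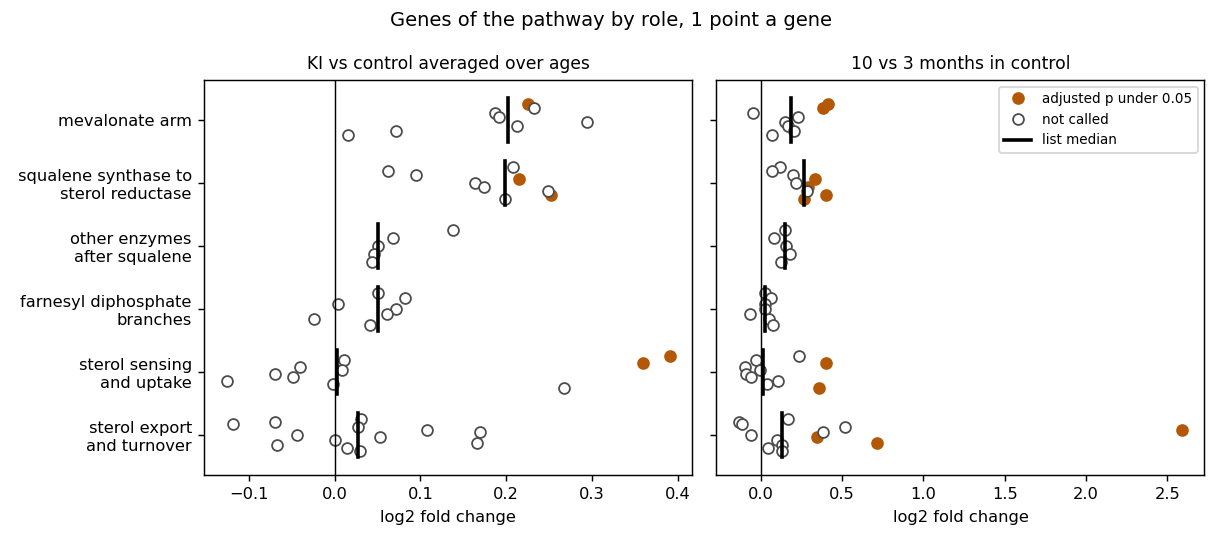
Log2 fold change (horizontal axis) of each gene, by role in the pathway, for KI against control averaged over ages and for 10 against 3 months in control, on separate scales. Points are genes, filled where edgeR's adjusted p was under 0.05, and the thick line is the list median. In the left panel the medians of the mevalonate arm (0.20) and of the 9 enzymes (0.20) lie to the right of the others.

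Markers of some cell types differed in level beside these genes. At 10 months 10 of 10 markers of mature oligodendrocytes, the cells that make myelin, lay above 0 in KI (median 0.15), with summed levels of 3108 to 4274 CPM in control and 3580 to 4506 CPM in KI. The ranges overlapped. Microglial markers lay above 0 in 9 of 9 cases (median 0.12), at 626 to 775 CPM in control and 723 to 974 CPM in KI. Those of microglia at plaques lay above 0 in 5 of 5 (median 0.49), at 129 to 189.7 CPM and 188 to 289 CPM. Astrocyte markers had a median of 0.046, with 9 of 10 above 0. Other lists lay below 0 in KI at 10 months. Those of choroid plexus were below 0 in 5 of 5 (median -0.88, 28 to 2085 CPM in control and 23.5 to 1273 CPM in KI), and those of oligodendrocyte precursors in 5 of 5 (median -0.23, 133 to 176 CPM and 126 to 144 CPM). With age in control all 10 oligodendrocyte markers lay below 0 (median -0.082) and all 5 plaque microglial markers rose (median 4.18). The part of these cells in the enzyme levels was not tested.

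At 3 months 5 of 5 tested thalamic markers lay above 0 in KI (median 0.85), at a summed 54.4 to 134 CPM in control and 84.7 to 186 CPM in KI, and Shox2 was near 0 in some controls. Gbx2 was not tested. Meningeal markers lay above 0 in 6 of 6 (median 0.46, 90.4 to 191 CPM against 147 to 247 CPM) and choroid plexus markers in 5 of 5 (median 0.98, 50 to 1405 CPM against 59.8 to 2196 CPM). Haemoglobin and other red cell markers lay below 0 in 5 of 5 (median -0.81). No marker of these lists was called between genotypes, and their part in the 3 month differences was not tested. At 10 months the summed thalamic levels were 51.9 to 58.9 CPM in control and 49.9 to 74.3 CPM in KI. With age 1 of 5 thalamic markers fell in control (median -0.89) and 5 of 5 fell in KI (median -1.74), and 2 of 5 red cell markers rose in KI (median 1.00). Their part in the age differences of the enzymes was not tested.

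Within groups the 9 genes did not vary as 1 unit. After the group means were taken off, 36 pairs were correlated over 20 libraries, with permutations within groups and Benjamini-Hochberg adjustment over the pairs. Pearson's r was above 0 in 22 pairs and passed at an adjusted p of 0.05 in 14, and Spearman's rho passed in 10. Msmo1 and Nsdhl had the highest r, 0.84 (rho 0.76, permutation p = 0.00014 and 0.00065, adjusted p = 0.00252 and 0.00684), with r = 0.72 without the 2 libraries farthest out. Cyp51 and Msmo1 had r = 0.80 (rho 0.75, permutation p = 6e-05 and 0.00042, adjusted 0.00216 and 0.00684), and r = 0.71 without the farthest 2. Ebp had r below 0 with 7 of the other 8, of which 2 pairs passed. Its r with Hsd17b7 was -0.76 (rho -0.72, permutation p = 0.00023 and 0.00076, adjusted 0.00276 and 0.00684; r = -0.63 without the farthest 2). With Lss it was -0.68 (rho -0.83, permutation p = 0.0138 and 0.00025, adjusted 0.0382 and 0.00684), and r = -0.64 without the farthest 2. In each pair the farthest 2 were those farthest from the median of the gene earlier in pathway order. They thus differ between pairs, and in these 2 pairs the libraries farthest out for Ebp were not sought. The mean r of Ebp with the other 8 was -0.33, that of Dhcr7 was -0.18, and the highest mean was that of Sqle at 0.40. The 2 genes of a pair share the library, its depth and its scaling.

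**Figure D4:**
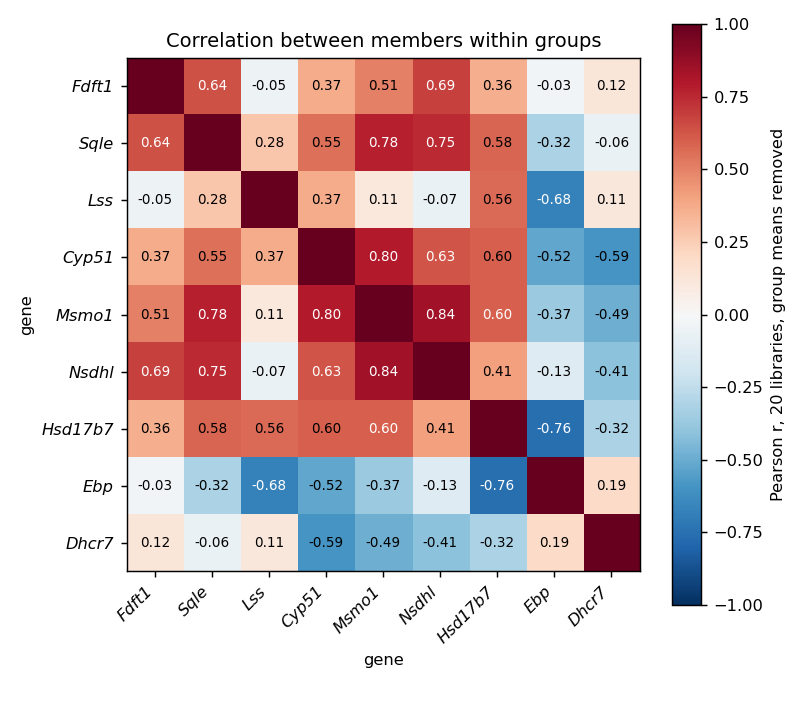
Pearson r between members over 20 libraries with group means removed, genes in pathway order on both axes. Red is positive and blue negative. The block from Sqle to Hsd17b7, apart from pairs of Lss, is red throughout, and the rows of Ebp and Dhcr7 are mostly blue.

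Genes whose pattern within groups was most like the mean of the 9 were sought among 13859 genes with a mean of at least 1 CPM, over the 20 libraries. The highest r was that of Stard4, a sterol transfer protein gene, at 0.87. Hmgcs1, which makes HMG-CoA, had 0.86, Fbxw11, which encodes a subunit of a ubiquitin ligase, had 0.85, and BC007180 had 0.79. Of these Stard4 had 0.27 ± 0.057 in KI averaged over ages (edgeR adjusted p = 0.0965), and it rose with age by 0.36 ± 0.081 in control. Hmgcs1 had 0.19 ± 0.049 between genotypes (adjusted p = 0.3). Fbxw11 had -0.055 at 3 months and -0.024 at 10 months, so likeness within groups did not go with a like genotype difference there. Fdps and Mvd, of the same pathway, had r of 0.04 and -0.31.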

How the data were processed

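Cortex RNA from 20 libraries was sequenced on an Illumina HiSeq instrument, per the labels' protocols. The authors deposited raw counts for each gene in a single table, made on build mm10 per the submitters' processing notes. Aligner, counter, strand setting and annotation are not given in the sources used here. All 37 mitochondrial genes were 0. The test was edgeR's quasi-likelihood F test (edgeR 4.0.16, R 4.3.3, with filterByExpr, TMM and robust fitting), run over all 20 libraries as 4 group means with 16 residual degrees of freedom. P-values were adjusted by Benjamini-Hochberg over the 19623 genes tested in each contrast, and genes were called at 0.05. CPM are TMM-scaled, and log2 CPM used a prior count of 2. Separate animals are not stated in the labels, so the spread behind the p-values is that between libraries and may be technical.

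All 9 enzymes are named. Of each pathway list, genes called between genotypes and the 2 of smallest unadjusted p in the averaged contrast are named, with the 5 genes outside the set most like it. Srebf2, Mvd, the sex-linked genes, the genes that overlap or resemble members, and Shox2 were named outside this rule, after their values were seen. Some genes that the rule names are not reported here. Members and lists were chosen with earlier results of these data known. Overlaps come from GENCODE annotation of the same build, and copies were sought with blastn 2.17.0. The test was checked on simulated data. Of 50 genes changed 1.2-fold, 10 were recovered between genotypes at 3 months, 5 at 10 months and 3 in each age comparison. Of 50 changed 2-fold, 46 to 50 were recovered. Each simulated comparison held 50 genes changed at each of 1.2, 1.5, 2 and 4-fold, drawn from genes with a mean of at least 1 CPM. The real comparisons of genotype called far fewer genes, so these rates do not give the chance of calling these 9 enzymes. As alternatives, scaling was by RLE, low counts were kept or a mean of 1 CPM was required, and DESeq2 1.42.0 and limma-voom (3.58.1, with quality weights) replaced edgeR. The fit was also limited to the libraries compared, blocked by replicate number, called at 0.1, and repeated without each library and without both that stood apart.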

Additional observations from a re-analysis of the deposited data

Results flagged for a closer look

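In 36 groups of 5 libraries (9 genes in 4 groups) each gene was tested for a library far from the others, and 2 groups had one. Chance flags about 1 in 20 groups. Both concerned KI replicate 5 at 10 months, the library with 54206 Xist counts. Sqle stood there at 124.6 CPM, with the next library at 106.6 and the lowest at 104 CPM. Dhcr7 stood there at 43.9 CPM, below the others at 47.75 to 48.12 CPM. The 2 enzymes thus lay at opposite ends in the same library.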

How the results depend on the processing

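Over the alternatives, all 594 genotype values and all 342 age values of the 9 genes were above 0. These are refits that share most of their libraries, and the averaged values follow from those of each age, so they are not separate evidence. Called genes at 10 months numbered 2 and fell to 0 under RLE scaling, no low-count filter, only the compared libraries, and without both libraries that stood apart, and leaving out 1 library gave 0 to 0. DESeq2 called 3. Averaged over ages the count was 2, with 4 under DESeq2 and 1 to 3 without 1 library. With the replicate block (9 residual degrees of freedom) it was 0 at 10 months and 0 in the average. Libraries that share a number were not paired by it: 3 of 18 such pairs correlated above 0.1 (range -0.34 to 0.28), and 1 of 20 libraries correlated best with its own number. The 3 month and interaction counts stayed at 0, and age gave 4 to 6 in control and 5 to 6 in KI. The interaction of Dhcr7 turned from 0.01 to -0.03 without both libraries that stood apart and spanned -0.052 to 0.061 without 1 library, and that of Lss (0.018) spanned -0.022 to 0.058. The causes were not tested.

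Over all genes the calls at 3 months were 5 with edgeR and 12 with DESeq2 or limma-voom. At 10 months they were 12, 59 and 67, with 4 under the replicate block and 7 in only the compared libraries. In the average they were 15, 49 and 53, with 4 under the block and 31 at a threshold of 0.1. For age, limma-voom called 1260 against 799 in control and 3055 against 1582 in KI, where only the compared libraries gave 958. The interaction gave 0, 4 and 3. RLE scaling moved the median of all genes by at most 0.015. Replicates differed by more than counting error over all genes, with a chi-square of 10.67 to 120.3 per degree of freedom.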

Other observations

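The processed pseudogene Gm6781 is 97.4% identical to Fdft1 over 1249 bases, and held 2747 counts over all libraries against 146325 for Fdft1. Its level was 2.12 ± 0.389 CPM in control and 2.59 ± 0.191 CPM in KI at 3 months, and 2.69 ± 0.201 CPM and 3.43 ± 0.369 CPM at 10 months (SD, n = 5 each). Its genotype difference was 0.35 ± 0.12 at 10 months and did not pass (edgeR adjusted p = 0.439), and how reads were shared between the copies is uncertain. Among 17 other genes of sterol synthesis and sensing with a RefSeq promoter, the NF-Y box was in 11 and the Sp1 box in 12. The sterol regulatory element, in the single form searched, was in 1, which was Hmgcs1, and not in Insig1.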
